A study of Homo sapiens with 6 samples.

Results

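The collagen chain genes of UE7T-9 cells were compared between cells that overexpressed SHC4 and control cells, class by class. Members were the genes with a symbol of the form COL, digits, A, digits, after the Ensembl identifiers in the normalized count files had been matched to symbols. Of the 28181 genes listed, 41 met this rule: 11 fibrillar collagens (types I, II, III, V, XI, XXIV and XXVII), 9 network-forming collagens (IV, VIII and X), 9 FACIT collagens, which have a helix with interruptions and sit on fibrils (IX, XII, XIV, XVI, XIX, XX, XXI and XXII), 3 membrane collagens (XIII, XVII and XXV) and 9 others (VI, VII, XV, XVIII, XXVI and XXVIII).

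UE7T-9 is a line of mesenchymal stem cells from human bone marrow whose life span was extended with hTERT and HPV E7. UE7T-9 SHC4 cells were infected with a lentivirus that carried the coding region of SHC4, a signaling adaptor of the SHC family, behind the CMV promoter and with puromycin resistance. UE7T-9 Cont cells carried a GFP vector by the study's methods, while their labels read Nontarget and give the genotype as WT. Both groups were grown in DMEM, and RNA was sequenced from 3 samples of each. Labels call these samples biological replicates without saying whether they came from separate infections or cultures, so the p-values below measure the spread between these samples. Samples held 18144993 to 27721397 reads assigned to genes. SHC4 itself was at 56.5, 157 and 130 normalized counts in UE7T-9 Cont and at 134870, 119166 and 155006 in UE7T-9 SHC4. Of the mesenchymal stem cell markers, THY1, NT5E, ENG, PDGFRB, MCAM and LEPR were all detected in every sample, with summed levels of 30817 to 35246 normalized counts in the controls and 35178 to 38684 in UE7T-9 SHC4. In the limma fit below, 3 of these 6 markers were higher and 1 lower at an unadjusted p under 0.05, where 7.47 and 6.96% of all genes were. None was called by limma, and 2 had a DESeq2 adjusted p under 0.05, against 4.14% of all genes. Hematopoietic markers summed to at most 165 normalized counts and endothelial markers to at most 153 in any sample.

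Collagens are secreted proteins built from α chains that wind into a helix, and each gene encodes 1 such chain. Fibrillar collagens form the tensile fibers of bone, tendon and skin; network collagens form sheets such as the basement membrane; FACITs coat fibrils and set their spacing; and membrane collagens keep a transmembrane domain and act at the cell surface. Mesenchymal stem cells of the bone marrow are strong producers of type I, III and VI collagen, which make up much of the stroma that surrounds blood-forming cells.

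Replicate 1 of each group stood apart from its own group in these genes. Collagen genes took 4.65, 2.08 and 1.81% of all gene reads in replicates 1, 2 and 3 of UE7T-9 Cont, and 3.94, 2.92 and 2.66% in those of UE7T-9 SHC4. The Wilson 95% intervals of these shares, which cover counting error only, spanned 4.64 to 4.66% in the highest sample, so counting error was far smaller than the gaps between samples. Of the 40 collagens tested, 28 had their highest control value in replicate 1 and 24 their highest UE7T-9 SHC4 value in replicate 1, against 36.1 and 38.4% of all genes tested. For 19 collagens (47.5%) this held in both groups, against 18.4% of all genes. Across all genes, the mean chi-square per gene between the reads of replicate 1 of UE7T-9 Cont and replicate 1 of UE7T-9 SHC4 was 33.9. Replicate 1 of UE7T-9 Cont differed from the other controls by 95 and 147, and replicate 1 of UE7T-9 SHC4 from replicates 2 and 3 of its group by 83.1 and 69.7. By the correlation of log2 values, replicate 1 of UE7T-9 SHC4 was nearest to replicate 2 of its own group (0.978). It stood at 0.975 with both replicate 3 of its group and replicate 1 of UE7T-9 Cont. The limma fit below was therefore also run without replicate 1 of both groups, an alternative chosen after the data were seen. In the gene paragraphs, values from that fit are given mainly where its limma adjusted p was under 0.05. That p was higher for, among others, COL5A2 (0.059), COL6A2 (0.074), COL1A2 (0.079), COL8A1 (0.082), COL17A1 (0.090), COL4A1 (0.118) and COL1A1 (0.127).

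**Figure D1:**
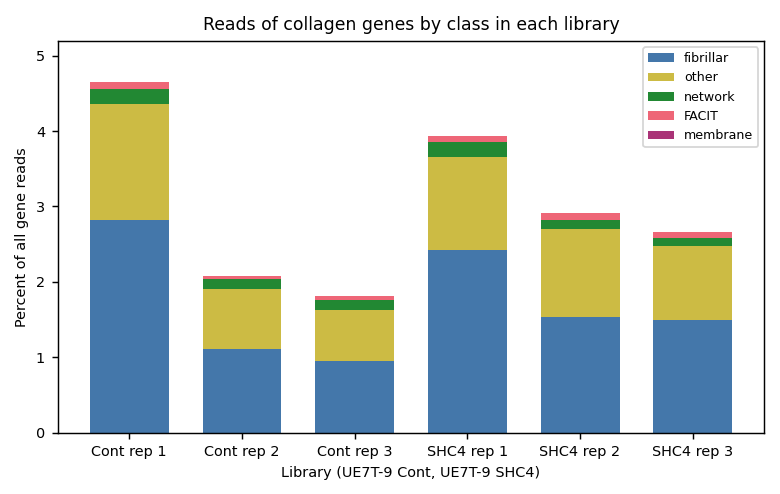
Percent of all gene reads (y axis) that fell on collagen genes in each of the 6 samples (x axis), stacked by structural class. Replicate 1 is the highest bar of each group, at 4.65% in the controls and 3.94% in UE7T-9 SHC4, and the membrane class is too small to be seen.

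The collagen genes as a whole showed no call between the groups. By limma on log2(normalized count + 1), 40 of the 41 genes had the mean normalized count of at least 1 needed to be tested, and 0 of these passed an adjusted p of 0.05 (Benjamini-Hochberg over 23040 genes) with a log2 fold change over 1 in either direction. In the same fit 14 genes were called, which is 0.0608% of all genes tested, and the lowest limma adjusted p of a collagen was 0.098, for COL19A1. At an unadjusted p under 0.05 there were 3 collagens higher and 7 lower in UE7T-9 SHC4, where 7.47 and 6.96% of all genes were. DESeq2 on the recovered reads called 4 of the 36 collagens it adjusted, namely COL19A1, COL13A1 and COL24A1 as lower and COL14A1 as higher, against 2.2% of all genes by the same thresholds. edgeR called 0 of 34, against 0.0631% of all genes. A limma fit blocked on replicate number called 0 of 40, against 0.169% of all genes. In 7 of 40 collagens the groups did not overlap, against 19.3% of all genes. In 6 of them UE7T-9 SHC4 was lower, against 10.2% of all genes, and in 1 it was higher, against 9.13%. With 3 samples against 3 the smallest two-sided p an exact permutation test can give is 0.1, which each of these 7 genes had.

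Samples left out changed this picture. Without replicate 1 of UE7T-9 Cont, limma called 8 collagens, against 2.88% of all genes. COL8A2, COL16A1, COL21A1, COL22A1 and COL6A6 were higher and COL13A1, COL19A1 and COL24A1 lower. Without replicate 1 of both groups, limma called 12 collagens, against 2.89% of all genes: those 8, with COL14A1 and COL15A1 as higher and COL4A6 and COL9A3 as lower. That fit kept only replicates 2 and 3 of each group. Replicate 1 was left out because its collagen values stood apart, so these calls and their p-values are not independent of that choice. Leaving out any other single sample gave 0 calls.

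Each class had members on both sides of 0. The median log2 fold change was -0.014 over the 11 fibrillar genes, -0.12 over the 9 network genes, 0.54 over the 8 FACIT genes tested, -1.16 over the 3 membrane genes and 0.47 over the 9 other genes, beside -0.0040 over all genes tested. Of the fibrillar genes 5 were higher and 6 lower, of the network genes 3 and 6, of the FACITs 6 and 2, of the membrane collagens 1 and 2, and of the others 7 and 2, where 49.7% of all genes were higher. When 1 sample was left out, the fibrillar median ran from -0.37 to 0.26 and the network median from -0.40 to 0.29, while the other 3 kept their sign. These counts describe the members, whose levels varied together across samples, and were not tested as sets. The summed normalized counts of a class overlapped between the groups for the fibrillar, network, FACIT and other classes. The membrane class summed to 246, 474 and 672 normalized counts in replicates 1, 2 and 3 of UE7T-9 Cont and to 211, 171 and 139 in those of UE7T-9 SHC4. It was the class whose sum did not overlap, and COL13A1 was the highest of its members in every sample but replicates 2 and 3 of UE7T-9 SHC4, where COL25A1 was. As a share of the collagen level per kilobase the membrane class did overlap, at 0.0350% in replicate 1 of UE7T-9 Cont and 0.0351% in replicate 1 of UE7T-9 SHC4. In bulk RNA, fewer cells of a type and less RNA per cell cannot be told apart.

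**Figure D2:**
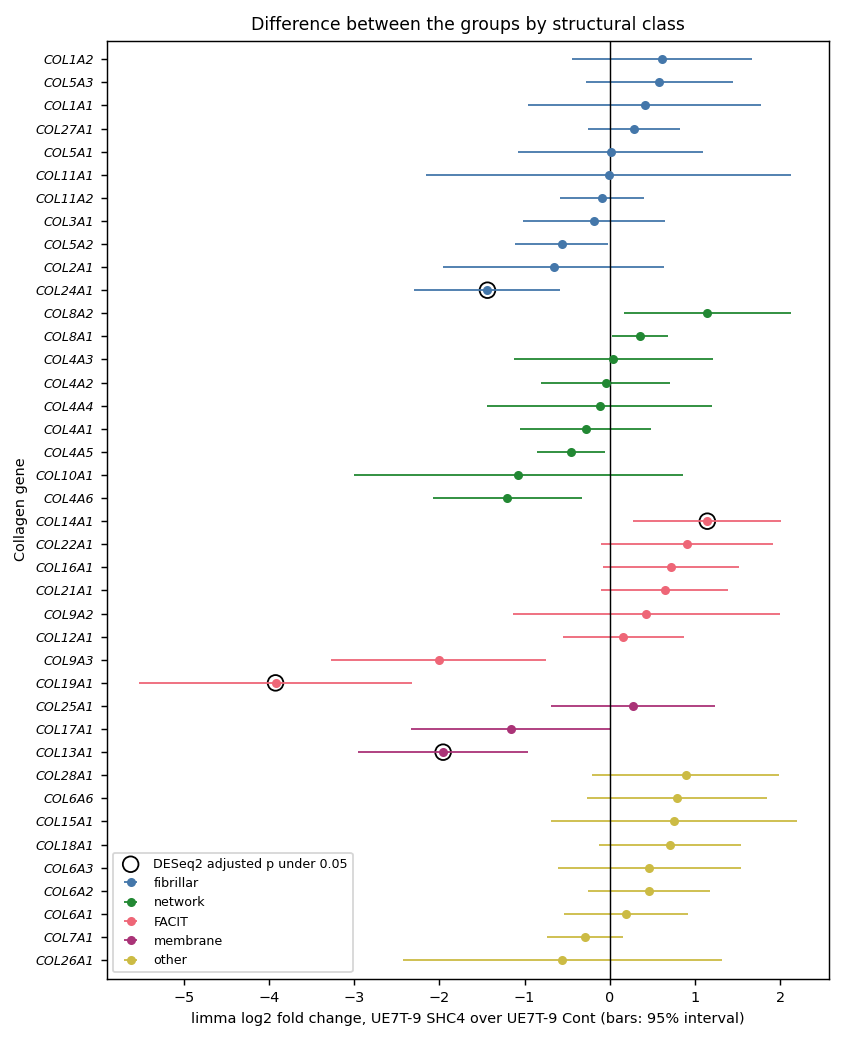
limma log2 fold change of UE7T-9 SHC4 over UE7T-9 Cont (x axis) for the 40 collagen genes tested (y axis), grouped and colored by class, with bars for the 95% interval. Circles mark the 4 genes that DESeq2 called, of which COL19A1 at -3.92 is the lowest and COL14A1 at 1.14 is higher.

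Level per length was dominated by a few chains. Divided by the length of its exons, COL1A1 averaged 16969 normalized counts per kilobase over the 6 samples, COL1A2 14776, COL6A2 12504, COL6A1 10588, COL6A3 5668 and COL3A1 5244. Together these 6 chains held 85.1 to 91.2% of the collagen level per kilobase in every sample. At the other end, 5 tested collagens had a mean under 10 normalized counts.

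**Figure D3:**
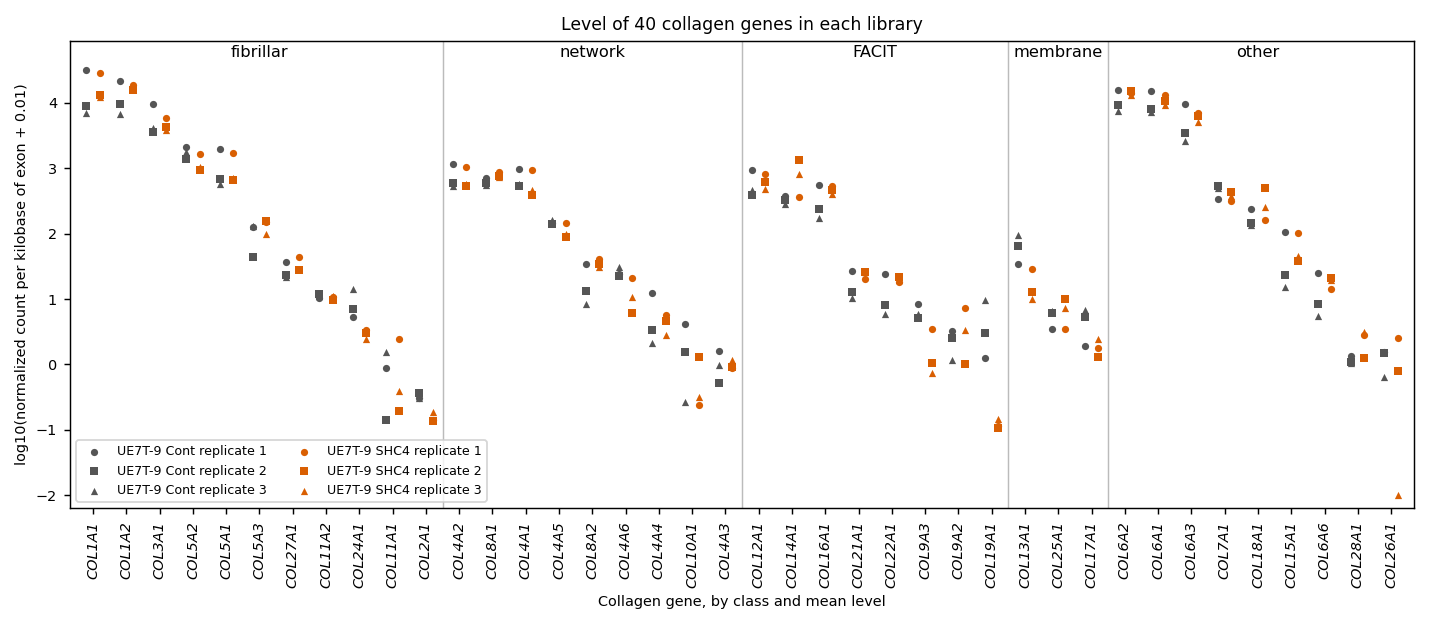
Level of the 40 tested collagen genes as log10(normalized count per kilobase of exon + 0.01) (y axis), ordered by class and mean level (x axis), with 1 point per sample and a marker shape per replicate number. The levels span from a mean of 16969 per kilobase for COL1A1 to 0.229 for COL2A1. The groups lie apart mainly among the low genes, which was not compared with all genes of like level.

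Among the fibrillar collagens, the chains of type I and III, the main fibers of the bone marrow stroma, did not separate by group. COL1A1, the α1 chain of type I, was at 315042, 87857 and 67813 normalized counts in replicates 1, 2 and 3 of UE7T-9 Cont and at 276719, 130035 and 122241 in UE7T-9 SHC4. Replicate 1 was high in both groups, 4.05-fold over the mean of the other controls and 2.19-fold over the mean of the other UE7T-9 SHC4 samples, and the groups overlapped. The limma log2 fold change was 0.41 with a 95% interval of -0.96 to 1.78 (limma adjusted p = 0.799). COL1A2, the α2 chain that pairs with it, was at 238109, 106936 and 74827 in the controls and at 210247, 178051 and 180862 in UE7T-9 SHC4. Here the UE7T-9 SHC4 samples lay close together and inside the range of the controls (log2 fold change 0.61, interval -0.45 to 1.66, limma adjusted p = 0.589). COL3A1, the single chain of type III, was at 65804, 24287 and 28429 and at 40337, 28905 and 26551. These ranges overlapped, at a log2 fold change of -0.18 (interval -1.02 to 0.65, limma adjusted p = 0.860).

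The ratio of COL1A1 to COL1A2, each per kilobase, also followed the replicate number. It was 1.5, 0.933 and 1.03 in the controls and 1.5, 0.830 and 0.768 in UE7T-9 SHC4. Both replicates 1 thus had the highest ratio, and the groups overlapped.

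COL5A2, a type V chain that joins type I fibrils, was at 15967, 10285 and 13222 normalized counts in UE7T-9 Cont and at 12227, 6949 and 7916 in UE7T-9 SHC4. Only replicate 1 of UE7T-9 SHC4 lay within the range of the controls. Its log2 fold change was -0.56 ± 0.24 (SE), with an unadjusted limma p of 0.045 from 3 samples a group and a limma adjusted p of 0.332. The partner chain COL5A1 gave a log2 fold change of 0.01 and overlapping groups.

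COL24A1 (ENSG00000171502, chromosome 1, 85729233 to 86156943 of GRCh38), a minor fibrillar chain found in developing bone, was the fibrillar gene with the largest difference. It was at 50.7, 68.3 and 135 normalized counts in UE7T-9 Cont and at 32.5, 29.1 and 23.3 in UE7T-9 SHC4. All 3 UE7T-9 SHC4 samples lay below all controls, and the controls differed among themselves by 2.66-fold. The limma log2 fold change was -1.44 ± 0.38 (SE; limma adjusted p = 0.183), and the DESeq2 value was -1.57 (DESeq2 adjusted p = 0.0164). With replicate 1 of both groups left out, the limma value was -1.84 (limma adjusted p = 0.0492). COL2A1, the chain of cartilage fibrils, also had non-overlapping groups, but with 6 reads over the controls and 3 over UE7T-9 SHC4 it was at or below the floor of 3 reads per sample, and no fold is given.

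The other fibrillar genes COL5A3, COL11A1, COL11A2 and COL27A1 had overlapping groups and log2 fold changes of -0.09 to 0.58. COL11A1 ranged from 1.18 to 22 normalized counts over the 6 samples.

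Of the network collagens, the main basement membrane chains did not separate. COL4A1 was at 14436, 7865 and 8380 normalized counts in UE7T-9 Cont and at 13776, 5690 and 6760 in UE7T-9 SHC4. COL4A2, with which it forms the common type IV trimer, was at 22102, 11663 and 10183 and at 20382, 10446 and 11187. In both genes replicate 1 was the highest of each group and the groups overlapped, with log2 fold changes of -0.28 (interval -1.05 to 0.49, limma adjusted p = 0.754) and -0.05 (interval -0.80 to 0.71, limma adjusted p = 0.964). The starts of these genes lie head to head on chromosome 13, 126 bases apart by RefSeq.

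COL4A5 and COL4A6, which lie head to head on chromosome X and encode the chains of a further type IV network, were both lower in level at an unadjusted p under 0.05. COL4A5 (ENSG00000188153, 108439844 to 108697545) was at 1756, 1682 and 1888 normalized counts in UE7T-9 Cont and at 1709, 1055 and 1188 in UE7T-9 SHC4. COL4A6 (ENSG00000197565, 108155607 to 108439497) was at 225, 210 and 291 in the controls and at 198, 56.6 and 99.0 in UE7T-9 SHC4. For COL4A6 the groups did not overlap, replicate 1 of UE7T-9 SHC4 being only just below the lowest control, and for COL4A5 that replicate lay within the controls. The log2 fold changes were -0.46 ± 0.18 (SE; limma adjusted p = 0.289) for COL4A5 and -1.20 ± 0.39 (SE; limma adjusted p = 0.225) for COL4A6. When replicate 1 of both groups was left out, they were -0.67 (limma adjusted p = 0.0271) and -1.71 (limma adjusted p = 0.0318), of which the second passed the fold threshold. The ratio of COL4A6 to COL4A5 per kilobase was 0.164, 0.159 and 0.197 in the controls and 0.148, 0.0686 and 0.107 in UE7T-9 SHC4. Of 10 ratios between collagen chains that were computed, some of them across types, this was the only one whose groups did not overlap. Among single genes, 19.3% of all those tested had groups that did not overlap.

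COL8A1 and COL8A2 encode the type VIII chains that form hexagonal sheets under endothelium. COL8A1 (ENSG00000144810, chromosome 3, 99638475 to 99799226) was at 6621, 5563 and 5286 normalized counts in UE7T-9 Cont and at 8233, 7211 and 6848 in UE7T-9 SHC4. It was the only collagen with all UE7T-9 SHC4 samples above all controls, the lowest of them only just above the highest control. The fitted difference between the groups was 1.28-fold (log2 fold change 0.35 ± 0.15 SE, limma adjusted p = 0.319). COL8A2 (ENSG00000171812, chromosome 1, 36095236 to 36125220) was at 161, 61.2 and 39.3 in UE7T-9 Cont and at 188, 161 and 143 in UE7T-9 SHC4. Replicate 1 of the controls reached the level of UE7T-9 SHC4, and the other controls were far below it. Its log2 fold change was 1.15 ± 0.44 (SE; limma adjusted p = 0.285), and without replicate 1 of both groups 1.61 (limma adjusted p = 0.0289). COL4A3, COL4A4 and COL10A1, the last a chain of hypertrophic cartilage, had overlapping groups and log2 fold changes of -1.07 to 0.04. The lowest value was that of COL10A1, with 22 reads over the controls and 8 over UE7T-9 SHC4.

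The FACIT collagens held the largest difference of the family, and 6 of the 8 tested had a positive log2 fold change. COL12A1, a FACIT of type I fibrils, was at 11643, 4892 and 5890 normalized counts in UE7T-9 Cont and at 10067, 7824 and 5934 in UE7T-9 SHC4, with overlapping groups (log2 fold change 0.16, interval -0.55 to 0.87, limma adjusted p = 0.857). COL16A1 was at 5136, 2206 and 1625 and at 5035, 4279 and 3771. Its controls spread 3.16-fold, with replicate 1 above every UE7T-9 SHC4 sample. The log2 fold change of COL16A1 was 0.71 ± 0.35 (SE; limma adjusted p = 0.401), and without replicate 1 of both groups 1.08 (limma adjusted p = 0.0198).

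COL14A1 (ENSG00000187955, chromosome 8, 120059780 to 120372036), a fibril-coating chain that binds decorin, was higher by DESeq2. It was at 3280, 2851 and 2479 normalized counts in UE7T-9 Cont and at 3124, 11446 and 7011 in UE7T-9 SHC4. Replicate 1 of UE7T-9 SHC4 lay within the controls and the other UE7T-9 SHC4 samples lay well above them. The limma log2 fold change was 1.14 ± 0.38 (SE; limma adjusted p = 0.241), and the DESeq2 value was 1.33 (DESeq2 adjusted p = 0.0142). Without replicate 1 of both groups limma gave 1.75 (limma adjusted p = 0.0146). The ratio of COL14A1 to COL12A1 per kilobase was 0.407, 0.841 and 0.608 in the controls and 0.448, 2.11 and 1.71 in UE7T-9 SHC4.

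COL19A1 (ENSG00000082293, chromosome 6, 69866571 to 70209976), a rare chain known from muscle and nerve, was lowest relative to the controls. It was at 10.7, 25.9 and 81.6 normalized counts in UE7T-9 Cont and at 0.879, 0.832 and 1.16 in UE7T-9 SHC4. Each UE7T-9 SHC4 sample held a single read, and the controls differed among themselves by 7.61-fold. The 116 reads over the controls against 3 over UE7T-9 SHC4 gave a ratio of 42.8 with an exact 95% interval of 14.3 to 210 that covers counting error only. The log2 fold change was -3.92 ± 0.71 (SE) by limma (limma adjusted p = 0.098) and -5.39 by DESeq2 (DESeq2 adjusted p = 0.00029), and edgeR gave an edgeR adjusted p of 0.125. With so few reads in UE7T-9 SHC4 these fitted values depend on the constant added, and with a pseudocount of 0.1 limma gave -4.76. COL19A1 shares 70 exonic bases with LMBRD1 on the opposite strand, a gene at a mean of 1028 normalized counts, and whether reads were counted by strand is not given in the sources used here.

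COL9A3 (ENSG00000092758, chromosome 20, 62816244 to 62841159), a type IX chain of cartilage, was at 39.97, 24.72 and 28.5 normalized counts in UE7T-9 Cont and at 16.7, 4.99 and 3.49 in UE7T-9 SHC4. All UE7T-9 SHC4 samples lay below all controls, replicate 1 the least. The log2 fold change was -2.01 ± 0.56 (SE; limma adjusted p = 0.192), and without replicate 1 of both groups -2.41 (limma adjusted p = 0.0493). It shares 45 exonic bases with TCFL5 on the opposite strand. COL9A2 had overlapping groups with a log2 fold change of 0.43.

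COL21A1 and COL22A1 had overlapping groups, with replicate 1 of the controls the highest control and the other controls below UE7T-9 SHC4. Their log2 fold changes were 0.65 and 0.91 (limma adjusted p = 0.414 and 0.400). When replicate 1 of both groups was left out, they were 1.17 and 1.58 (limma adjusted p = 0.0286 and 0.0220). COL20A1, listed with 5 reads over the controls and 1 over UE7T-9 SHC4, was not tested.

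The membrane class was led by COL13A1 (ENSG00000197467, chromosome 10, 69801867 to 69964275), a transmembrane collagen of cell adhesion sites and the neuromuscular junction. It was at 202, 383 and 567 normalized counts in UE7T-9 Cont and at 169, 74.1 and 58.2 in UE7T-9 SHC4. All UE7T-9 SHC4 samples lay below all controls, although replicate 1 of either group lay close to the other. The log2 fold change was -1.96 ± 0.44 (SE) by limma (limma adjusted p = 0.148) and -1.93 by DESeq2 (DESeq2 adjusted p = 0.00138). With replicate 1 of both groups left out, limma gave -2.81 (limma adjusted p = 0.00874).

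COL17A1, the hemidesmosome collagen of epithelia, was at 13.6, 37.7 and 48.2 normalized counts in UE7T-9 Cont and at 12.3, 9.16 and 17.5 in UE7T-9 SHC4, with groups that overlapped through replicate 1 of the controls (log2 fold change -1.16 ± 0.52 SE, limma adjusted p = 0.351). Epithelial markers were also at low levels. Their sum was 68.3 to 166 normalized counts in the controls and 15.0 to 78.2 in UE7T-9 SHC4, 4 of 5 tested were lower, EPCAM was at most 4.92, and KRT18 was lower by DESeq2 (DESeq2 adjusted p = 0.00804). The part of these markers in the COL17A1 values was not tested. COL25A1, a neuronal membrane collagen, was at 30.2, 54.2 and 57.1 and at 29.9, 87.4 and 62.9, with overlapping groups (log2 fold change 0.27, interval -0.70 to 1.23, limma adjusted p = 0.817).

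**Figure D4:**
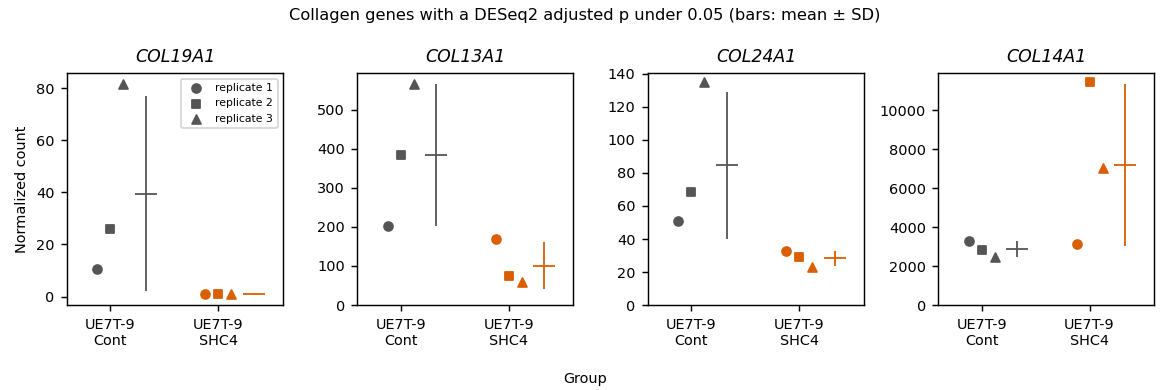
Normalized counts (y axis, from 0) of the 4 collagen genes that DESeq2 called, in UE7T-9 Cont and UE7T-9 SHC4 (x axis), with 1 point per sample, a marker shape per replicate number and the mean ± SD beside them. COL19A1, COL13A1 and COL24A1 lie lower in every UE7T-9 SHC4 sample than in any control, while for COL14A1 replicate 1 of UE7T-9 SHC4, at 3124, lies among the controls.

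The sequence before the start is shown for COL13A1 and COL19A1, the lower genes with the smallest DESeq2 adjusted p, and for COL4A5, whose window overlaps that of its head-to-head neighbor COL4A6. Each is the part of the 250 bases before the RefSeq start (GRCh38.p14) that holds no annotated exon, read 5′ to 3′ on the strand of the gene, with capitals for a TATA box (TATAAA) or a CCAAT box (CCAAT) on either strand.
COL13A1, chr10:69801656-69801866, plus strand: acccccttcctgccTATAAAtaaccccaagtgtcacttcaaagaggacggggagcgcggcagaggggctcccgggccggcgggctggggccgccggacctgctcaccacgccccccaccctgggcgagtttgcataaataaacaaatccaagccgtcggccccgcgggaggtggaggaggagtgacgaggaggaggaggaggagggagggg
COL19A1, chr6:69866306-69866470, plus strand: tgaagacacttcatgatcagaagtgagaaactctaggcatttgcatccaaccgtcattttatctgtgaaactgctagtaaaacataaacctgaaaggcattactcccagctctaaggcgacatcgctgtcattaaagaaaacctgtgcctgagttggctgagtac
COL4A5, chrX:108439588-108439837, plus strand: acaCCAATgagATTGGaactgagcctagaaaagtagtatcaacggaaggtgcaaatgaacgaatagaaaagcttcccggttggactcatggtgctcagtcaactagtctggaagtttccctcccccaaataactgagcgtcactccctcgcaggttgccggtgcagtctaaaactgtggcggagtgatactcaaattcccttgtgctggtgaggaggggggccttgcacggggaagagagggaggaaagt

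COL13A1 thus held 1 TATA box by its letters, near the end of the stretch farthest from the start. The COL4A5 window held 2 CCAAT boxes in opposite orientation, and the COL19A1 stretch held neither motif. The starts of COL4A5 and COL4A6 are 379 bases apart at the nearer COL4A6 start, so the bases shown are a part of those between them, and the COL4A6 window from that start, which overlaps the one shown, held 3 CCAAT boxes. Among 35116 RefSeq windows of 250 bases before a start, searched on both strands, TATAAA was in 10.7%, CCAAT in 32.0% and the GC box GGGCGG in 42.6%. Among the 41 such windows of 30 collagen genes they were in 8, 11 and 23. A match describes letters in a window and is not evidence of a bound factor.

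Of the remaining classes, type VI collagen, the beaded filament that links cells to fibrils, was high in every sample. COL6A1 was at 80131, 43421 and 38708 normalized counts in UE7T-9 Cont and at 70784, 56734 and 49656 in UE7T-9 SHC4. COL6A2 was at 84910, 49971 and 40119 and at 75918, 81820 and 71346. COL6A3 was at 187459, 68670 and 50397 and at 135698, 123920 and 101480. In all of these genes replicate 1 was the highest control and the groups overlapped. Their log2 fold changes were 0.19 (interval -0.54 to 0.92), 0.46 (interval -0.26 to 1.18) and 0.47 (interval -0.61 to 1.54), with limma adjusted p = 0.831, 0.548 and 0.701. COL6A6, a chain that stands in for COL6A3 in some tissues, gave a log2 fold change of 0.79 and, without replicate 1 of both groups, 1.57 (limma adjusted p = 0.0227). The remaining members COL7A1, COL15A1, COL18A1, COL26A1 and COL28A1, which include the anchoring fibril chain COL7A1 and the endostatin precursor COL18A1, had overlapping groups and log2 fold changes of -0.56 to 0.89. Both ends of this range rested on few reads. COL26A1, the lowest, held 11 reads over the controls and 12 over UE7T-9 SHC4, and COL28A1, the highest, held 22 and 49.

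**Figure D5:**
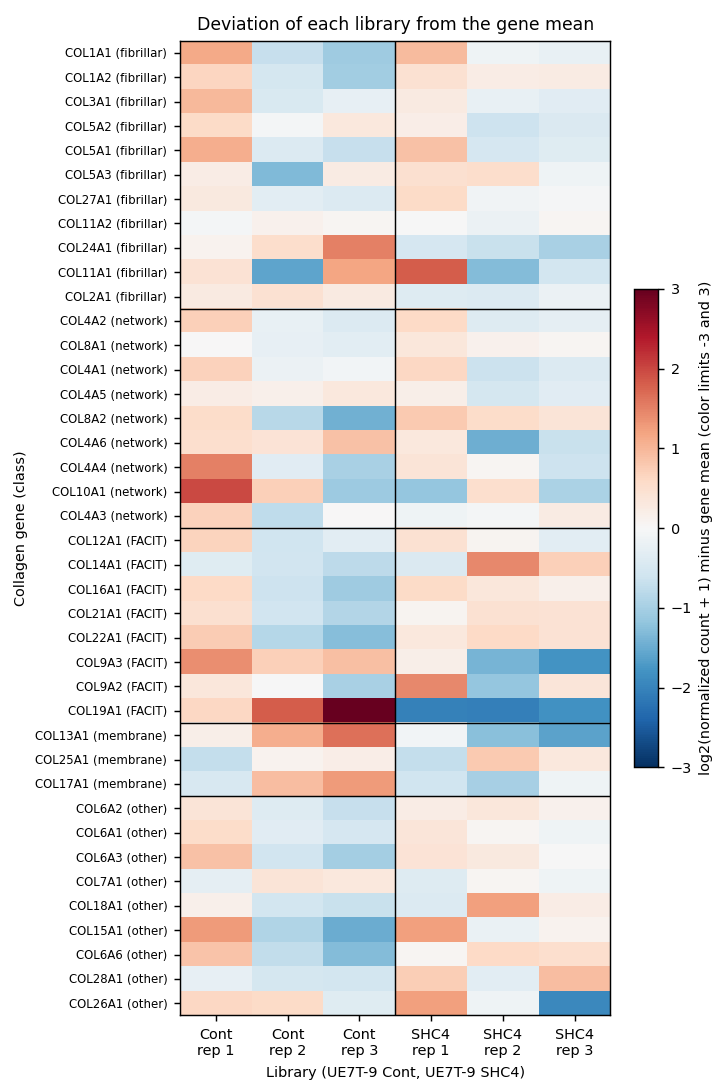
Deviation of each sample (columns) from the gene mean of log2(normalized count + 1) for the 40 tested collagens (rows, by class and level), red above and blue below the mean, with color limits at -3 and 3. Replicate 1 of both groups is red in most fibrillar and type IV genes, and COL19A1, COL13A1 and COL24A1 are below the mean in all UE7T-9 SHC4 samples.

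The larger differences lay among the genes of low level. Of the 18 collagens with a mean of 100 or more normalized counts per kilobase, a limit chosen after the values were seen, 1 had a log2 fold change over 1 in either direction (COL14A1) and the range was -0.56 to 1.14. Of the 22 below it, 8 did, and the range was -3.92 to 1.15. All 6 collagens with lower and non-overlapping groups were among the latter. The same split was not made over all genes, so whether it is particular to collagens was not tested.

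The genes that make, cut, bind and sense collagen were described by lists chosen with earlier results of these data known. Of 87 such genes 82 were tested, 0 were called by limma, 11 were higher and 8 lower at an unadjusted p under 0.05, where 7.47 and 6.96% of all genes were, and the median log2 fold change was 0.12, beside -0.0040 over all genes tested. A limma fit blocked on replicate number called 1 of the 82, TNXB, as higher (limma adjusted p = 0.0487), against 0.169% of all genes. DESeq2 gave an adjusted p under 0.05 to 4 of the 82, a share near the 4.14% of all genes. PLOD2, the lysyl hydroxylase of collagen telopeptides, was at 8496, 10302 and 11831 normalized counts in UE7T-9 Cont and at 6509, 4297 and 5239 in UE7T-9 SHC4. All UE7T-9 SHC4 samples lay below all controls, with a log2 fold change of -0.94 ± 0.19 (SE; limma adjusted p = 0.116, DESeq2 adjusted p = 0.00102). P3H2, a prolyl 3-hydroxylase that acts on type IV chains, was also lower in every UE7T-9 SHC4 sample, at -0.84 ± 0.21 (SE; limma adjusted p = 0.17, DESeq2 adjusted p = 0.0331). In their list of 20 folding and hydroxylation genes 9 were higher and 11 lower.

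All 10 tested fibril-binding proteins had a positive log2 fold change, with a median of 0.95, and 4 of them had an unadjusted p under 0.05, where 7.47% of all genes were higher at that p. THBS2, a matricellular protein, gave the largest t-statistic of the list at a log2 fold change of 2.07 ± 0.55 (SE; limma adjusted p = 0.184), and THBS1 gave 0.89 (limma adjusted p = 0.274, DESeq2 adjusted p = 0.0178). Among 9 tested receptors, 6 were higher and 3 lower. ITGA2, a subunit of a collagen-binding integrin, was at -1.16 ± 0.41 (SE; limma adjusted p = 0.261, DESeq2 adjusted p = 0.0402), and ITGA11, a subunit of another, was at 0.74 (limma adjusted p = 0.225). Of the 15 propeptide processing and crosslinking genes 11 were higher and 4 lower, TLL1 having the largest t-statistic at 2.37 ± 0.78 (SE; limma adjusted p = 0.234). Collagenases and gelatinases were 5 higher and 3 lower, with MMP1 at -1.46 ± 0.47 (SE; limma adjusted p = 0.224). Basement membrane partners were 8 higher and 4 lower, with LAMA5 at 0.95 (limma adjusted p = 0.218), and secretion genes were 3 higher and 5 lower, with TRAPPC2 at -0.26 (limma adjusted p = 0.447).

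Markers of cartilage and bone cells were read beside the cartilage chains COL2A1, COL9A2, COL9A3, COL10A1, COL11A1 and COL11A2. The chondrocyte list summed to 1702 to 13266 normalized counts in UE7T-9 Cont and to 32348 to 56738 in UE7T-9 SHC4, and 4 of 5 tested were higher. ACAN, the main cartilage proteoglycan, was at 11490, 7726 and 695 in the controls and at 29035, 38276 and 54052 in UE7T-9 SHC4, so that the groups did not overlap and ACAN was the highest of the list in every sample but replicate 3 of the controls (log2 fold change 3.31 ± 0.86 SE, limma adjusted p = 0.180). The osteoblast list summed to 564 to 1175 in UE7T-9 Cont and to 454 to 594 in UE7T-9 SHC4. All 4 of its tested genes were lower, where 49.7% of all genes tested were higher, and SP7 was at or below 1.76 in every sample. The limma log2 fold changes of the chains were -2.01 for COL9A3, 0.43 for COL9A2, -1.07 for COL10A1, -0.014 for COL11A1 and -0.09 for COL11A2. The COL10A1 value rested on 22 reads over the controls and 8 over UE7T-9 SHC4, and was -0.037 without replicate 1 of both groups. COL2A1 stayed at or below 2.35 normalized counts in all samples, and the part of these markers in the COL9A3 values was not tested.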

How the data were processed

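Total RNA was extracted with an RNeasy kit, libraries were made with the NEBNext Ultra kit, and sequencing was done on a NovaSeq system. The submitters' processing notes name HISAT2 2.0.5, featureCounts 1.5.0-p3 and DESeq2. The genome build, annotation and strand setting are not given in the sources used here. The signal that the authors deposited for each gene and sample is the read count divided by 1 size factor per sample (a normalized count). All values (100%) were whole multiples of 1 read within 0.01 reads, so read counts were recovered by division. Size factors ran from 0.849 to 1.20, and 3 reads corresponded to 2.50 to 3.53 normalized counts.

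All 28181 identifiers were matched to symbols, and positions and exon lengths came from GENCODE 29 (GRCh38). limma 3.58.1 (lmFit, eBayes with trend, R 4.3.3) was run on log2(value + 1), for which 23040 genes reached the minimum mean of 1 and 5141 did not, with Benjamini-Hochberg adjustment and calls at an adjusted p under 0.05 with a log2 fold change over 1 in either direction. The fold change understates changes of low genes on this scale. DESeq2 1.42.0 and edgeR 4.0.16 (quasi-likelihood) were run on the recovered reads. Scripts were tested on simulated data.

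The members and lists were chosen with earlier results of these data known. Genes described in full were the 3 with the highest level per kilobase in each class, those with an adjusted p under 0.05 by limma, DESeq2 or edgeR, those with an unadjusted limma p under 0.05, and those with non-overlapping groups and a log2 fold change over 1 in either direction. COL6A6, COL21A1 and COL22A1 were added after their values were seen. In the lists, genes with an adjusted p under 0.05 by limma or DESeq2 and the gene with the largest t-statistic were named. Alternatives were library size scaling, TMM, a pseudocount of 0.1, no filter, a mean of at least 10, no fold threshold, a replicate block and leaving out samples.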

Additional observations from a re-analysis of the deposited data

How the results depend on the processing

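Against 0 collagens called, DESeq2 called 4 and leaving out 1 sample gave 0 to 8, and against 0 pathway genes DESeq2 and the replicate block each called 1 and leaving out 1 sample gave 0 to 8. The 10 collagens with an unadjusted p under 0.05, where 14.4% of all genes were, became 5 to 23 when 1 sample was left out. The highest count came without replicate 1 of UE7T-9 Cont and the lowest, 6 and 5, without replicates 2 and 3 of UE7T-9 SHC4. The share of all genes at that p is not given for these fits, so their counts are not a result about collagens. Against 14 calls over all genes, DESeq2 gave 355, TMM 24, no filter 40, the replicate block 39 and leaving out 1 sample 2 to 664. Without replicate 1 of either group, chosen after the data were seen, 12 collagens, 13 pathway genes and 665 genes in all were called. In that fit 23 collagens had an unadjusted p under 0.05, and the share of all genes at that p is again not given. The median of the other class ran from 0.19 to 0.96 when 1 sample was left out.

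Leaving out 1 sample turned the sign of COL1A1 (-0.022 to 1.09), COL3A1 (-0.46 to 0.26), COL4A2 (-0.35 to 0.29), COL12A1 (-0.094 to 0.53), COL25A1 (-0.063 to 0.70) and COL6A1 (-0.014 to 0.51), and COL3A1 was at 0.076 without replicate 1 of either group. The other 16 of 22 genes described in full kept their sign under every setting. The cause of these changes was not tested.

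The labels give both groups replicates 1 to 3, but nothing says that equal numbers share a culture. Deviations of same-numbered samples from their group means correlated at 0.148, 0.013 and -0.0070 over the 23040 genes tested, and at 0.409, 0.146 and 0.149 over the 12678 of them whose mean reached 50, where replicate 2 of UE7T-9 Cont and replicate 3 of UE7T-9 SHC4 correlated at 0.517. Whether the numbers pair the samples thus differed with the filter and is not settled. The replicate block called 0 collagens and gave 14 an unadjusted p under 0.05, 5 higher and 9 lower. The share of all genes at that p is not given for the blocked fit, which called 39 genes in all against 14 in the main fit. Library size scaling moved the median of all genes to -0.10 and gave 20 collagens higher and 20 lower, where the deposited scaling gave 22 and 18. With 3 samples a group, a collagen at few reads such as COL2A1, COL20A1 or COL26A1 could not show a difference at this depth.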
